A study of Mus musculus with 20 samples.

Results

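Fibroblasts, the matrix-producing cells of the dermis, were followed through 10 marker genes in RNA sequencing of whole mouse skin. The genes were Pdgfra, Pdgfrb, Dpp4, Pi16, Fap, Dpt, Ly6a, Thy1, Twist2 and Crabp1. They were taken as a fixed list of symbols, and each was found by its symbol in the deposited table. They made up 10 of its 46744 rows, and all 10 averaged 1 FPKM or more across groups, as did 17015 rows in all. FPKM counts fragments relative to the length of the gene model and to all mapped fragments, so levels of different genes can be set side by side.

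Whole skin of C57BL/6 mice had been taken in 20 samples. Conditional knockout skin, with the genotype Sod2-/- and called cKO here, came from mice of 300 days (n = 3) and 100 days (n = 3). Sod2 encodes the superoxide dismutase of mitochondria. Control skin, with the genotype Sod2+/+, came from mice of 300 days (n = 3) and 100 days (n = 2). Control skin of the same genotype from mice of 700 days (n = 4) and 50 days (n = 5) formed a separate pair, marked by another prefix in the sample titles. No log2 ratio was taken across the 2 prefixes. The labels do not say which cells lost Sod2 or when. The series title places activation of JunB in fibroblasts.

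The authors deposited 1 value per gene and group, so no value below has a replicate spread, an error or a test, and the read depth is unknown. Differences are given as log2 ratios of (FPKM + 1). The words higher and lower are used in counts for a ratio of size 1 or more, which is a 2-fold difference in (FPKM + 1). Values on other scalings are given where they change a count, either with the groups brought to a common median or as TPM, with the groups brought to equal totals. In bulk skin, fewer cells of a type and less RNA per cell cannot be told apart.

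Dermal fibroblasts are a mixed population. Papillary fibroblasts lie under the epidermis, reticular fibroblasts lie deeper, dermal papilla cells sit at the base of hair follicles, and adventitial fibroblasts surround vessels. Platelet-derived growth factor (PDGF) receptors are used to recognise the whole lineage, while surface peptidases, glycolipid-anchored proteins and transcription factors are used to sort it into subsets. None of the 10 genes is made by fibroblasts alone. Thy1, Ly6a and Dpp4 are also made by T cells, and Pdgfrb by pericytes, the contractile cells around capillaries.

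Sod2 was 16.8 FPKM in cKO and 23.5 FPKM in control skin at 300 days, and 17.6 FPKM in cKO and 27.7 FPKM in control skin at 100 days. Its log2 ratios were -0.46 and -0.63, so the transcript was lower but present. Junb was 26.2 FPKM in cKO and 24.5 FPKM in control skin at 300 days, and 33.9 FPKM in cKO and 20.1 FPKM in control skin at 100 days. The labelled tissue bore its epidermal markers, since 8 keratinocyte genes summed to between 2863 and 12602 FPKM in every group. Other content of the skin differed between the groups compared. Sums over 7 skeletal muscle genes were 76.7 FPKM in 700-day and 3069 FPKM in 50-day controls. Sums over 10 T cell genes were 15.2 FPKM in cKO and 157 FPKM in control skin at 300 days, and 13.5 FPKM in cKO and 7.8 FPKM in control skin at 100 days. Adipocyte genes were lower in 9 of 10 cases at 700 against 50 days, with sums of 287 FPKM in 700-day and 1081 FPKM in 50-day controls. Transcripts of 4 genes on the Y chromosome (Uty, Kdm5d, Eif2s3y and Ddx3y) lay at 14.7 to 45.1 FPKM in 700-day controls and both cKO groups, and at or below 0.347 FPKM in the other control groups. Age in the 700-day and 50-day pair and genotype in the other pairs thus cannot be told apart from this sex-linked difference.

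**Figure D1:**
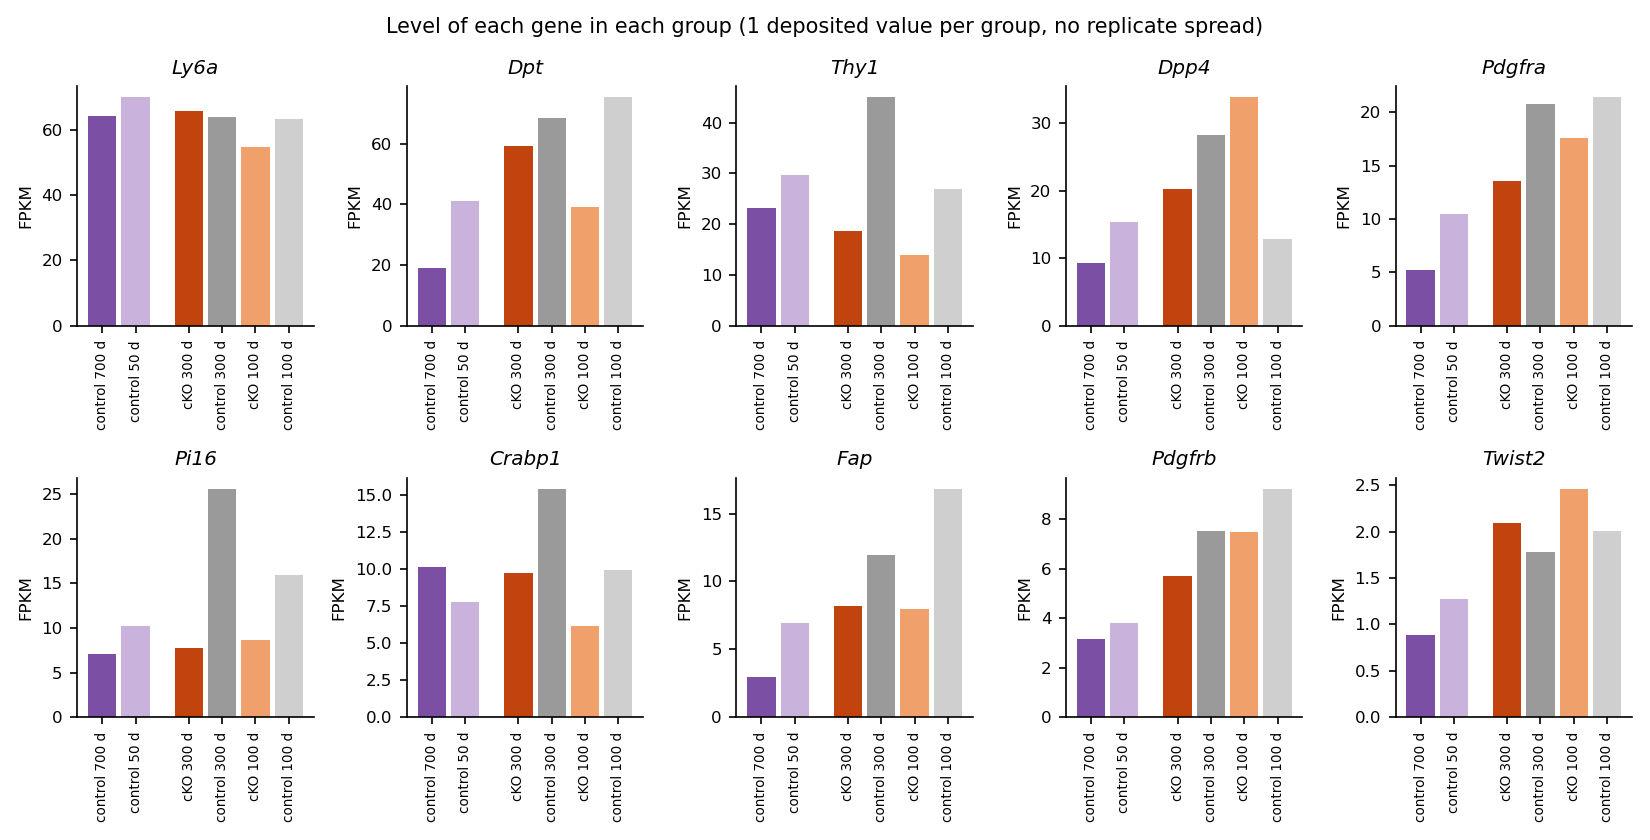
FPKM of each of the 10 genes in each of the 6 groups, 1 bar per group from the single deposited value, with a linear axis from 0 in each panel and no error bars. Ly6a stands between 54.6 and 69.9 FPKM in all groups, whereas Dpp4 is 33.8 FPKM in cKO and 12.9 FPKM in control skin at 100 days and lies the other way round at 300 days.

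By level, Ly6a and Dpt held ranks 1 and 2 in 5 of the 6 groups. In 700-day controls Thy1 held rank 2 and Dpt rank 3. Twist2, at 0.882 to 2.46 FPKM, was lowest in every group. In between, Dpp4 held rank 3 in both cKO groups, rank 4 in 300-day controls and rank 7 in 100-day controls. Crabp1 had the widest span of ranks, from 4 in 700-day controls to 9 in cKO skin at 100 days. Without a spread, neighbours in this order could not be told apart. Summed over the 10 genes, levels were 145 FPKM in 700-day and 197 FPKM in 50-day controls. The sums were 211 FPKM in cKO and 289 FPKM in control skin at 300 days, and 192 FPKM in cKO and 254 FPKM in control skin at 100 days.

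In all 3 pairs most of the 10 genes stood lower in the older or knockout group, mostly by less than the size counted. In 700-day against 50-day controls, Dpt and Fap were lower and none was higher, with a median log2 ratio of -0.41 over the 10 genes. Of all rows 3.84% were lower and 2.87% higher in that pair, 6.71% in either direction, and the median row was at -0.01. In cKO against control skin at 300 days, Pi16 and Thy1 were lower and none was higher (median -0.48), where 7.05% of all rows were lower, 3.61% were higher, 10.7% were either and the median row was at 0. At 100 days Dpp4 was higher and none was lower (median -0.44), where 5.51% of all rows were higher, 5.21% were lower, 10.7% were either and the median row was at 0.03. The count of lower genes at 100 days was 1 with a pseudocount of 0.1 or 0.5 or a common median (Fap), and 3 as TPM (Fap, Dpt and Thy1). Of the 10 genes, 9 had a log2 ratio below 0 at 700 against 50 days and 8 in each cKO comparison, against 51.1%, 49.5% and 45.6% of all rows. Comparisons at 300 and at 100 days have separate control samples.

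Between 300 and 100 days within a genotype the 10 genes showed no common shift. In cKO skin at 300 against 100 days none passed the size counted and 5 lay on each side of 0 (median -0.05), where 3.91% of all rows were higher and 4.87% lower, 8.78% in either direction. In control skin Dpp4 was higher and none was lower (median -0.01), where 5.54% of all rows were higher and 2.53% lower, 8.07% in either direction. That Dpp4 ratio lay short of the size counted with a common median (0.98) and as TPM (0.91). Subtracting the 100-day from the 300-day genotype difference left Dpp4 lower and none higher (median -0.06), where 9.08% of all rows were lower and 5.89% higher, 15% in either direction. These 3 comparisons use the same 4 groups as the cKO comparisons and add no independent samples.

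**Figure D2:**
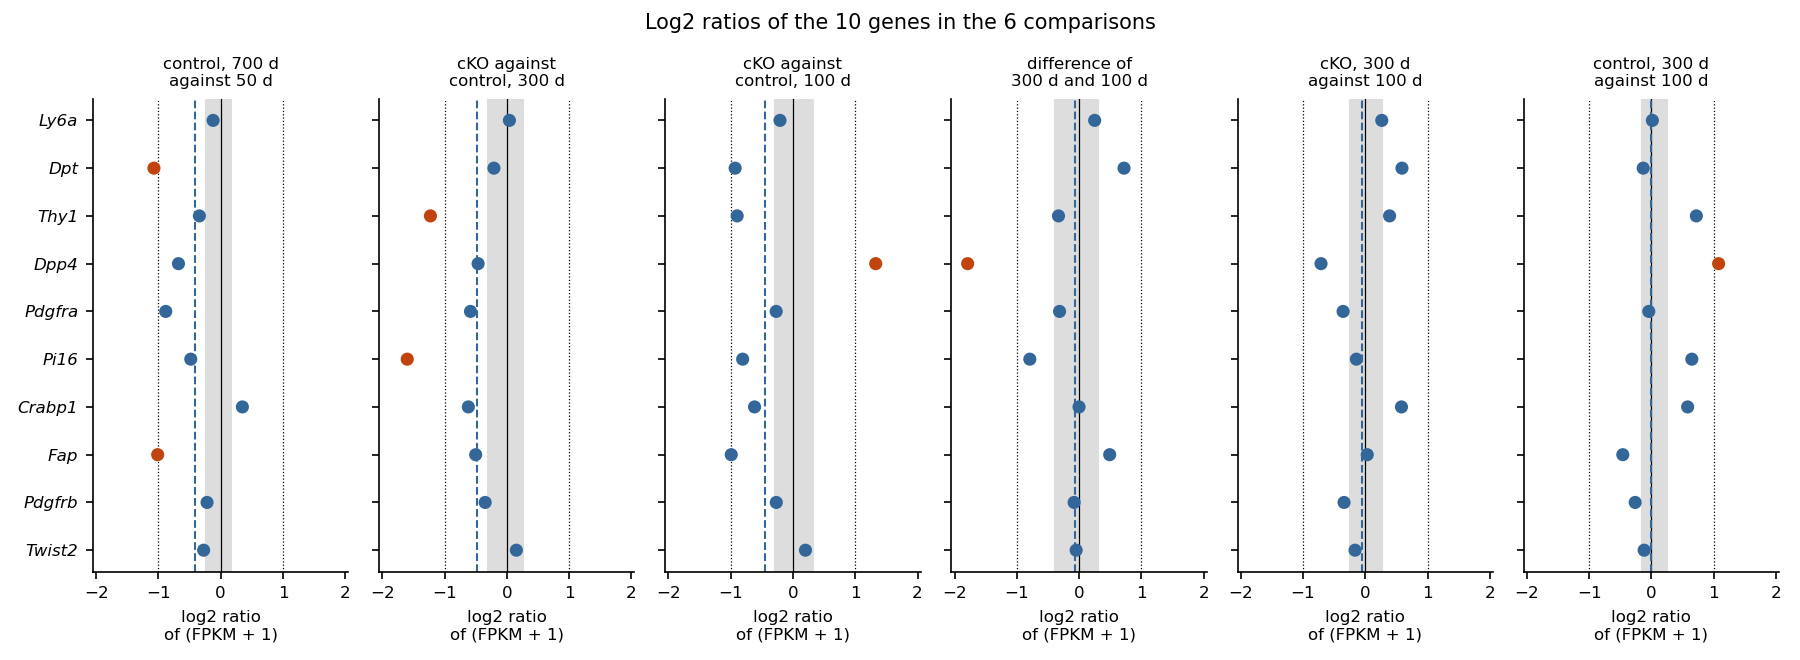
Log2 ratios of (FPKM + 1) on the x axis for the 10 genes, ordered by mean level down the page, in 6 comparisons. Red points passed a size of 1 (dotted lines), blue points did not, the dashed line is the median of the 10 genes and the grey band runs between the lower and upper quartiles of all rows. Dpp4 is at 1.33 in cKO against control skin at 100 days and at -0.46 at 300 days.

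Pdgfra and Pdgfrb encode the receptors for PDGF, which drive the growth and migration of mesenchymal cells. Pdgfra lies on chromosome 5 from 75152292 to 75198215 in GRCm38 (mm10), and its deposited value is shared with Mir7025, a microRNA annotated inside the gene. Antisense transcripts overlap exons of Pdgfra, Dpp4, Pi16, Dpt and Twist2 in the annotation, and their share of the reads is unknown, since the strand setting of the counting was not stated. Pdgfra was 5.24 FPKM in 700-day and 10.5 FPKM in 50-day controls (log2 ratio -0.88). It was 13.5 FPKM in cKO and 20.8 FPKM in control skin at 300 days (-0.58), and 17.6 FPKM in cKO and 21.4 FPKM in control skin at 100 days (-0.27). Pdgfra was thus lower in the knockout or older group of each pair, and the control groups at 300 and 100 days stood close together. Pdgfrb was 3.14 FPKM in 700-day and 3.82 FPKM in 50-day controls (-0.22). It was 5.71 FPKM in cKO and 7.54 FPKM in control skin at 300 days (-0.35), and 7.5 FPKM in cKO and 9.23 FPKM in control skin at 100 days (-0.27). The pair stayed near a fixed proportion in 5 groups, with Pdgfra at 2.32 to 2.75 times Pdgfrb, and at 1.67 times in 700-day controls.

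Genes of the ligands and signalling partners of these receptors stayed within the size counted. None of 11 genes in a list of PDGF ligands and signalling proteins passed the size counted in any of the 6 comparisons, where 6.71% to 15% of all rows did. In a list this short, a count of 0 lies near that share. Their medians were 0.10, 0.03 and -0.22 at 700 against 50 days, in cKO skin at 300 days and in cKO skin at 100 days. Among them, Pdgfa, a ligand of Pdgfra made by the epidermis, was 13.0 FPKM in cKO and 12.8 FPKM in control skin at 300 days, and 9.8 FPKM in cKO and 12.1 FPKM in control skin at 100 days. The ligand genes Pdgfb and Pdgfc were 2.07 and 1.97 FPKM in cKO skin at 100 days, and both were 4.19 FPKM in control skin (-0.76 and -0.80). Ratios of the list ran from -0.80 to 0.23 in that comparison. Pericyte genes, which mark the other main source of Pdgfrb, had 1 of 11 lower at 700 against 50 days (Des, which skeletal muscle also makes) and none past the size counted in either cKO comparison. Their medians were 0.09, -0.41 and -0.31 in those 3 comparisons.

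Dpp4 and Fap encode related prolyl peptidases of the cell surface. Dpp4, also called CD26, marks papillary and adventitial fibroblasts in mouse skin, and Fap marks activated fibroblasts. They are neighbours on chromosome 2, Dpp4 from 62330073 to 62412231 and Fap from 62500943 to 62574075, both on the minus strand, with Gcg the 1 protein-coding gene between them. Dpp4 was 20.3 FPKM in cKO and 28.3 FPKM in control skin at 300 days (log2 ratio -0.46), but 33.8 FPKM in cKO and 12.9 FPKM in control skin at 100 days (1.33). The knockout group was thus lower at the later age and 2.63 times as high at the earlier one. The 2 log2 ratios differed by -1.79, the 300-day value minus the 100-day value. Of all rows, 4.95% had a lower value of that difference.

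The Dpp4 levels of the 4 groups crossed with age. In cKO skin Dpp4 was lower at 300 than at 100 days, at 20.3 against 33.8 FPKM (-0.71). In control skin it was higher at 300 than at 100 days, at 28.3 against 12.9 FPKM (1.08, and 0.98 with a common median and 0.91 as TPM). Other content of the skin differed in the same comparisons. Of 9 genes of the growing hair follicle, 5 were higher in cKO than in control skin at 100 days (median 1.16, sums of 3860 FPKM in cKO and 1186 FPKM in control skin) and 3 others at 300 days (median 0.67, 2205 FPKM in cKO and 1853 FPKM in control skin). The 5 were Krt71, Krt72, Krt28, Tchh and Lef1, and the 3 were Krt33b, Krt35 and Krt31. Like Dpp4, Krt72 and Krt28 stood above control skin at 100 days (2.48 and 2.08) and below it at 300 days (-0.44 and -0.19). The remaining hair genes stood above it at both ages. All 8 T cell genes that passed the filter on low values were lower in cKO skin at 300 days (median -2.63) and none passed the size counted at 100 days (median 0.34), where Cd3e, a gene of the T cell receptor complex, stood at 1.08 FPKM in cKO skin, against 0.778 FPKM in control skin. The part of these tissues in the Dpp4 values was not tested.

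Fap did not share this pattern. It was 8.17 FPKM in cKO and 11.96 FPKM in control skin at 300 days (-0.50). At 100 days it was 7.97 FPKM in cKO and 16.8 FPKM in control skin, where its log2 ratio of -0.99 lay just short of the size counted and passed it with a common median and as TPM. In controls it was 2.93 FPKM at 700 days and 6.93 FPKM at 50 days (-1.01, and -0.98 with a common median). Fap was therefore lower in the older or knockout group of every pair. The level of Dpp4 was 4.24 times that of Fap in cKO skin at 100 days and 0.765 times in control skin of that age, while the same proportion was 2.48 in cKO and 2.36 in control skin at 300 days. Among 4 measured relatives of the prolyl peptidase family, Dpp7, Dpp8, Dpp9 and Prep, none passed the size counted in any comparison, where 6.71% to 15% of all rows did. With so few genes, none past the size lies near that share. Dpp8 stayed between 30.6 and 31.8 FPKM in all groups.

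Pi16, a peptidase inhibitor gene that marks adventitial fibroblasts, stood below its control in cKO skin of either age. The gene spans 29317680 to 29330593 on chromosome 17. Its level was 7.79 FPKM in cKO and 25.6 FPKM in control skin at 300 days (-1.60, the lowest of the 10 genes in that comparison), and 8.7 FPKM in cKO and 16.0 FPKM in control skin at 100 days (-0.81). Both cKO groups stood close together, and the control groups stood apart from each other at 25.6 FPKM at 300 days and 16.0 FPKM at 100 days (0.65). In controls Pi16 was 7.07 FPKM at 700 days and 10.3 FPKM at 50 days (-0.48). Set against Pdgfra in the same group, Pi16 was 0.576 in cKO and 1.23 in control skin at 300 days, and 0.495 in cKO and 0.746 in control skin at 100 days, so it was lower in cKO skin relative to Pdgfra as well. Macrophage genes were lower in 4 of 8 cases in cKO skin at 300 days (median -1.03, sums of 98.4 FPKM in cKO and 240 FPKM in control skin) and in none at 100 days (median -0.50, 82.2 FPKM in cKO and 121 FPKM in control skin). Their part in the Pi16 and Thy1 values was not tested.

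Other adventitial genes were less uniform. Of 13 measured genes 2 were lower and none higher in cKO against control skin at each age, with medians of -0.58 at 300 days and -0.27 at 100 days. At 300 days these were Anxa3, which encodes an annexin, at 23.4 FPKM in cKO and 71.6 FPKM in control skin (-1.57) and the insulin-like growth factor binding protein gene Igfbp6 at a log2 ratio of -1.45. At 100 days they were the microfibril gene Mfap5 at 10.5 FPKM in cKO and 23.7 FPKM in control skin (-1.11) and Cd248, which encodes endosialin of stromal cells, at 4.43 FPKM in cKO and 10.1 FPKM in control skin (-1.03). Cd34, the surface marker shared by these cells and hair follicle stem cells, was 38.4 FPKM in cKO and 71.3 FPKM in control skin at 300 days (-0.88). Procr, the receptor gene of protein C, stood the other way at that age, at 14.1 FPKM in cKO and 7.11 FPKM in control skin (0.90). The row that holds Anxa3 also carries a predicted gene. Endothelial genes had medians of -0.58 at 300 days and -0.49 at 100 days in cKO against control skin. The part of vessels in the adventitial values was not tested.

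Dpt encodes dermatopontin, a small matrix protein that binds decorin and collagen, and marks fibroblasts across tissues. It lies on chromosome 1 from 164796644 to 164824266. Dpt was 19.1 FPKM in 700-day and 41.2 FPKM in 50-day controls (-1.07, and -0.99 as TPM). It was 59.3 FPKM in cKO and 68.6 FPKM in control skin at 300 days (-0.21), and 39.0 FPKM in cKO and 75.2 FPKM in control skin at 100 days (-0.93, and -1.06 as TPM). The cKO group was low at 100 days and nearer to its control at 300 days. Relative to Pdgfra, Dpt was 3.64 in 700-day and 3.92 in 50-day controls, so these 2 genes differed between the ages in nearly the same proportion. Adipocyte and muscle sums also stood lower in 700-day than in 50-day controls, and adipocyte sums in cKO than in control skin at 100 days (2439 FPKM in cKO and 7693 FPKM in control skin). Their part in the Dpt and Fap values was not tested.

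Of 16 other fibroblast genes, 4 were lower and none higher at 700 against 50 days (median -0.71), and 3 were lower and none higher in cKO against control skin at 100 days (median -0.56). At 300 days 2 were higher and none lower (median 0.19), these being the collagen genes Col1a1 and Col1a2 with log2 ratios of 1.67 and 1.17. Lumican, the proteoglycan gene Lum, was 49.0 FPKM in cKO and 39.5 FPKM in control skin at 300 days (0.31), and 18.0 FPKM in cKO and 64.4 FPKM in control skin at 100 days (-1.78). Serpinf1, which encodes the secreted factor PEDF and whose value is shared with a predicted gene, was 19.3 FPKM in 700-day and 42.3 FPKM in 50-day controls (-1.10). This list mixes matrix genes with others such as Vim, an intermediate filament gene at -0.40, and Gsn, an actin-severing gene at -0.68 in cKO against control skin at 300 days.

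Ly6a and Thy1 encode small proteins held to the cell surface by a glycolipid anchor. Ly6a, known as Sca-1, marks reticular fibroblasts and adipocyte progenitors in mouse skin, and Thy1, known as CD90, marks most fibroblasts. Ly6a was 64.2 FPKM in 700-day and 69.9 FPKM in 50-day controls (-0.12). It was 65.8 FPKM in cKO and 63.9 FPKM in control skin at 300 days (0.04), and 54.6 FPKM in cKO and 63.2 FPKM in control skin at 100 days (-0.21). Ly6a had the smallest range of the 10 genes over the cKO and control groups at 300 and 100 days, 0.27 on the log2 scale. Ly6a relative to Pdgfra was 12.2 in 700-day and 6.66 in 50-day controls.

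Thy1 had the widest range over those 4 groups, 1.62 on the log2 scale. It lies on chromosome 9 from 44043384 to 44048579. Thy1 was 18.7 FPKM in cKO and 45.0 FPKM in control skin at 300 days (-1.23), and 14.0 FPKM in cKO and 26.9 FPKM in control skin at 100 days (-0.90, and -1.04 as TPM). In controls it was 23.2 FPKM at 700 days and 29.6 FPKM at 50 days (-0.34). Thy1 was therefore lower in cKO skin at 300 and at 100 days and highest in control skin at 300 days. That group was also the one with high lymphocyte transcripts, since Cd3e, Lck and Trac were 5.89, 35.0 and 24.8 FPKM there. All 8 measured T cell genes were higher in 300-day than in 100-day control skin (median 3.28). At 100 days, where T cell genes summed to 13.5 FPKM in cKO and 7.8 FPKM in control skin, the Thy1 ratio was -0.90. The part of lymphocytes in the Thy1 values was not tested.

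Twist2 and Crabp1 act inside the cell. Twist2 encodes a transcription factor of the dermal lineage that binds E-boxes, and Crabp1 a carrier of retinoic acid that marks papillary and dermal papilla fibroblasts in mice. Twist2 was 0.882 FPKM in 700-day and 1.27 FPKM in 50-day controls (-0.27). It was 2.09 FPKM in cKO and 1.78 FPKM in control skin at 300 days (0.15), and 2.46 FPKM in cKO and 2.01 FPKM in control skin at 100 days (0.20). These levels are low and the ratios of (FPKM + 1) understate their differences, which in plain FPKM were 1.18-fold and 1.22-fold in the cKO comparisons. Its relative Twist1 was 3.46 FPKM in cKO and 3.55 FPKM in control skin at 300 days. Of 13 measured mesenchymal transcription factors, Snai2 was higher (9.77 FPKM in cKO and 4.24 FPKM in control skin, 1.04) and Zeb1 lower (8.56 FPKM in cKO and 22.5 FPKM in control skin, -1.30) in cKO skin at 300 days, where 3.61% of all rows were higher and 7.05% lower. None passed the size counted at 100 days or at 700 against 50 days, where 10.7% and 6.71% of all rows did. In a list of this length such counts lie near those shares.

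Crabp1 was the 1 gene of the 10 with a higher level at 700 than at 50 days, at 10.2 against 7.77 FPKM (0.35). It lies on chromosome 9 from 54764748 to 54773110. Crabp1 was 9.72 FPKM in cKO and 15.4 FPKM in control skin at 300 days (-0.62), and 6.16 FPKM in cKO and 9.99 FPKM in control skin at 100 days (-0.62). The genotype difference was of nearly the same size at both ages, and within each genotype the 300-day group was higher than the 100-day group by 0.58 on the log2 scale. Relative to Pdgfra, Crabp1 was 1.94 in 700-day and 0.74 in 50-day controls. Its relative Crabp2, also made by keratinocytes, had log2 ratios of 0.51 and 0.24 in cKO skin at 300 and 100 days.

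In the retinoid list, Cyp26b1, which encodes an enzyme that degrades retinoic acid, was 7.97 FPKM in cKO and 9.86 FPKM in control skin at 300 days (-0.28) and 29.0 FPKM in cKO and 7.51 FPKM in control skin at 100 days (1.82). Like Dpp4, and like the hair genes Krt72 and Krt28, Cyp26b1 stood above control skin in the knockout group at the earlier age and below it at the later one. The likeness is thus not particular to Dpp4 and Cyp26b1. Of 13 measured retinoid genes 2 were higher (Cyp26b1 and Stra6) and 1 lower (Rbp4) at 100 days. At 300 days Rbp4 was lower and none was higher. Rbp4 is also made by adipocytes, and all 10 adipocyte genes were lower in cKO skin at 100 days (median -1.73), as were 7 at 300 days (median -1.22).

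**Figure D3:**
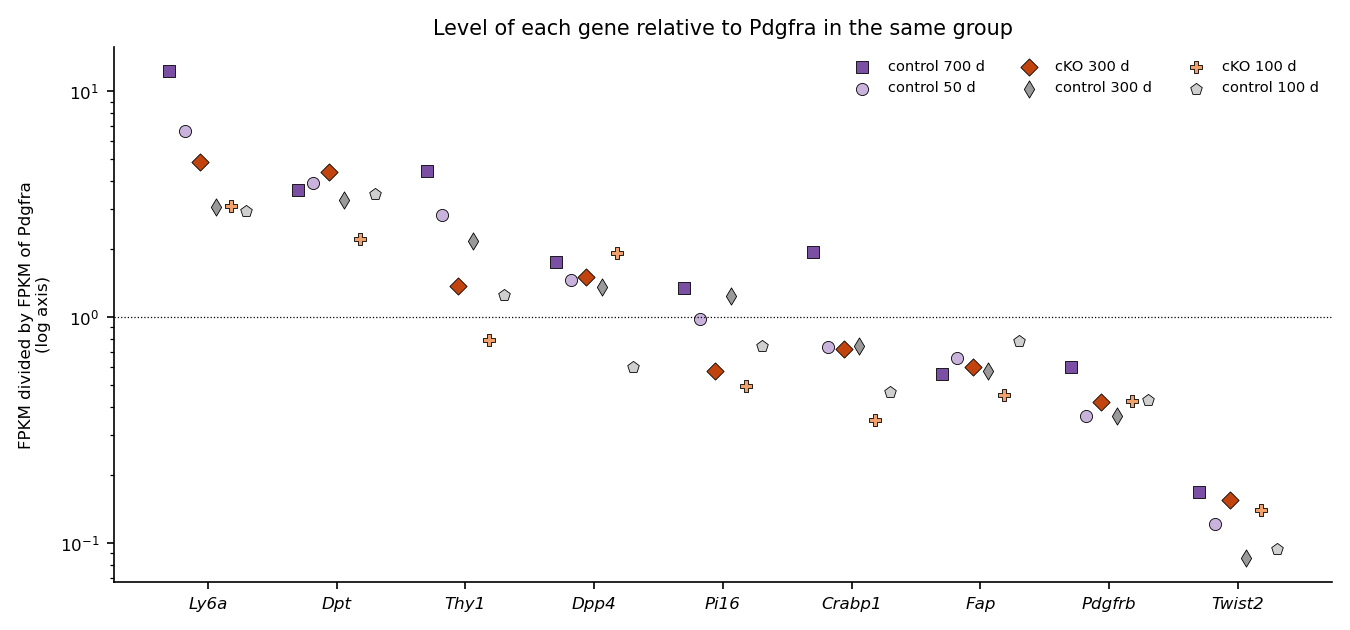
FPKM of 9 genes divided by the FPKM of Pdgfra in the same group, on a log axis, with 1 point per group. Dpp4 is at 1.92 in cKO and 0.601 in control skin at 100 days, and Crabp1 is at 1.94 in 700-day and 0.74 in 50-day controls.

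Lists of fibroblast subsets gave a further view. Of 6 measured reticular genes, 4 were lower and none higher at 700 against 50 days (median -1.17), among them the glutathione peroxidase gene Gpx3 at 5.96 FPKM in 700-day and 28.8 FPKM in 50-day controls. In cKO against control skin Gpx3 and the transglutaminase gene Tgm2 were lower at both ages, with medians of the list of -0.71 at 300 days and -0.52 at 100 days. Tgm2 was 31.8 FPKM in cKO and 84.9 FPKM in control skin at 300 days and 16.4 FPKM in cKO and 157 FPKM in control skin at 100 days. Of 10 adipocyte genes 9 were lower at 700 against 50 days, and 7 and 10 in cKO skin at 300 and 100 days. The part of fat in the reticular values was not tested. Papillary genes had medians above 0 in cKO skin. Of 8 measured papillary genes none was lower at either age, with medians of 0.34 at 300 days and 0.37 at 100 days, and the Wnt inhibitor gene Wif1 was the 1 past the size counted, at 10.3 FPKM in cKO and 4.37 FPKM in control skin at 300 days (1.08). In the same comparisons keratinocyte genes had medians of 0.59 and 0.56, and genes of the growing hair follicle 0.67 and 1.16. The part of epidermis and hair in the papillary values was not tested.

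Of 13 measured dermal papilla genes 3 were lower in cKO skin at 100 days (median -0.32). These were Fgf10, a growth factor of mesenchyme, at 1.38 FPKM in cKO and 10.04 FPKM in control skin, Prom1 at 2.82 FPKM in cKO and 14.6 FPKM in control skin and Trps1 at 21.8 FPKM in cKO and 54.5 FPKM in control skin. Prom1 was also lower at 300 days, and Vcan was lower at 700 against 50 days. Prom1 is made by glandular epithelium too, and 6 of 7 simple epithelial and gland genes were lower in cKO skin at 100 days (sums of 39.3 FPKM in cKO and 433 FPKM in control skin) and at 300 days (34.3 FPKM in cKO and 140 FPKM in control skin). Among 11 myofibroblast genes, Postn, Adam12 and Fn1 were lower at 100 days (median -0.51), with Postn at 62.1 FPKM in cKO and 281 FPKM in control skin. At 300 days Adam12 was lower and none was higher (median -0.06). Tpm2, lower at 700 against 50 days with Fn1, is also a skeletal muscle gene. The part of fat, glands and muscle in these values was not tested.

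**Figure D4:**
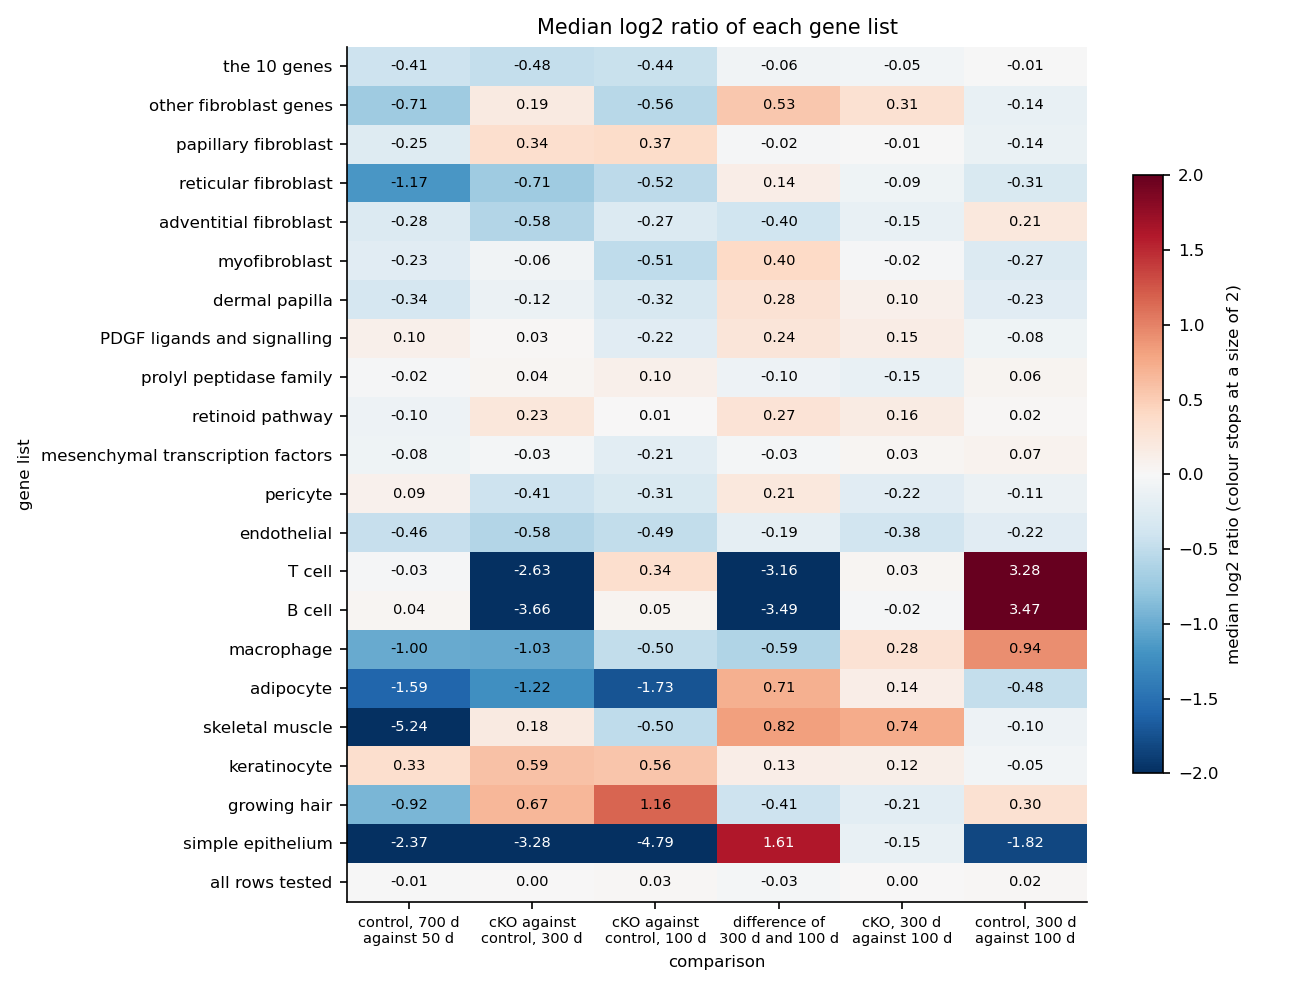
Median log2 ratio of (FPKM + 1) of the 10 genes, of 20 other gene lists and of all rows tested (down the page) in 6 comparisons (across), with the value printed in each cell and colours that stop at a size of 2. In cKO against control skin at 300 days the 10 genes are at -0.48, other fibroblast genes at 0.19 and T cell genes at -2.63.

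Genes with the most similar profile were sought for the 3 genes of widest range over the cKO and control groups at 300 and 100 days, among 9789 rows of 1 symbol with a mean of at least 5 FPKM. Profiles over the 6 groups were centred within each title prefix, and likeness was the root mean square distance on the log2 scale. For Thy1 the nearest were Mrc1, the mannose receptor gene of macrophages, Lyn and Serpinb1a at distances of 0.0968, 0.0996 and 0.101, where the median row was at 0.541. Mrc1 was 13.5 FPKM in cKO and 31.4 FPKM in control skin at 300 days. For Pi16 they were Cbr2, the antigen presentation gene H2-Ab1 and Unc93b1 at 0.0894, 0.113 and 0.134 (median row 0.584). For Dpp4 they were Sytl2, Acsm3 and Hist1h2bh at 0.0923, 0.126 and 0.139 (median row 0.485), and Sytl2 was 47.6 FPKM in cKO and 20.5 FPKM in control skin at 100 days. Around the median profile of the 10 genes lay Anapc13, Mlycd and Tmem177 at 0.0316, 0.0382 and 0.0426. The distance of the median row was not computed for that profile, so these distances cannot be set against those of the single genes. With 6 values per gene such matches are descriptions only.

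Promoters of 6 of the 10 genes (Pdgfra, Dpp4, Pi16, Dpt, Twist2 and Crabp1) were in the RefSeq table used here, each running from 250 bases before to 50 bases after the annotated start in GRCm38.p6. Pdgfrb, Fap, Ly6a and Thy1 had no entry. Those of Dpp4, Pi16 and Dpt are printed because these genes had the widest genotype difference between ages, the lowest cKO ratio and the lowest ratio at 700 against 50 days. The RefSeq start of Pi16 lies inside the gene as GENCODE annotates it. Capitals mark E-boxes, CANNTG on either strand, the letters that Twist proteins bind. Dpp4 is at chr2:62412182-62412481 on the minus strand, Pi16 at chr17:29318632-29318931 and Dpt at chr1:164796413-164796712 on the plus strand.
Dpp4: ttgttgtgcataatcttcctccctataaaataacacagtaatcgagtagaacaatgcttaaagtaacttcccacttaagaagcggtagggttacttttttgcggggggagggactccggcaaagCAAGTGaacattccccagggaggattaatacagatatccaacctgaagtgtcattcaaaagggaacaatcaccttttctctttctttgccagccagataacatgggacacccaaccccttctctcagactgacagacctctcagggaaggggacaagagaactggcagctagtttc
Pi16: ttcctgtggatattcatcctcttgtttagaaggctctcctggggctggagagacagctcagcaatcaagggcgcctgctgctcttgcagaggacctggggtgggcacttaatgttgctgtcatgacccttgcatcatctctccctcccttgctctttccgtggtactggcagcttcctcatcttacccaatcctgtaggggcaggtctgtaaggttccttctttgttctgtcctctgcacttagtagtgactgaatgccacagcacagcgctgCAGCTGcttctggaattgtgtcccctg
Dpt: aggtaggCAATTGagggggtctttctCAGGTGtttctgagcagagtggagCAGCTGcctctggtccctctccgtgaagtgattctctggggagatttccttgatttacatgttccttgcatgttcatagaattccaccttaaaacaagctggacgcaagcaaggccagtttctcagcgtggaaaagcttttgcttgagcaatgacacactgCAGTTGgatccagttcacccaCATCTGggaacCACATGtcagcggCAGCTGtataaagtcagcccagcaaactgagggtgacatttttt

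An E-box was found in 4 of the 6 promoters and in 72.3% of all 32851 promoters of the table, of which the median held 1. Dpp4 and Pi16 held 1 each, at -126 and 24 from the start, Pdgfra 2, and Twist2 and Crabp1 none. Dpt held 7, at -243, -224, -200, -39, -18, -7 and 7, a number reached by 0.177% of all promoters. The cut of 7 is the count of Dpt itself, the highest of the 6, so that share is a description only. The AP-1 motif TGANTCA, the letters bound by JunB and its partners, was searched on both strands as well. It was in none of the 6 and in 7.81% of all promoters. No match in a window of 300 bases says only that these letters are not there. Twist2 and Crabp1 had the promoters richest in G and C among the 6, at 64.7% and 65%, against 45.3% for Dpp4 and a median of 52.7% over all promoters.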

How the data were processed

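RNA of whole skin was measured in 20 samples of 6 groups, assigned by their source names. Ribosomal RNA was removed by either of 2 kits before directional libraries were made, per the labels' protocols, and the kit used for each sample is not stated. Per the submitters' processing notes, HISAT2, Cufflinks and Cuffdiff were used with mm10, without versions. The deposited values are FPKM, computed by the authors as 1 column per group over 46744 rows. How samples were combined, the annotation and the strand setting are not given in the sources used here, and read depth is unknown.

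Values per sample had been planned for limma. With 1 value per group, log2 ratios of (FPKM + 1) were taken instead, with rows kept from an average of 1 FPKM upwards and a size of 1 for counting. Where a symbol had several rows the one of highest average was taken, also where that row carries further symbols. The 10 genes, the 21 gene lists and the named genes (up to 4 of a list by size of ratio, and the 3 nearest profiles) were chosen with earlier results of these data known. Not every gene that this rule names is reported here. Positions are from GENCODE M21 (GRCm38). Counting was tested on simulated group tables. Python 3.11.15, pandas 2.3.3, numpy 2.4.6 and matplotlib 3.10.9 were used.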

Additional observations from a re-analysis of the deposited data

Results flagged for a closer look

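Dpp4 had genotype differences of opposite direction at the 2 ages, with a log2 ratio of cKO against control skin of -0.46 at 300 days and 1.33 at 100 days. The difference of these ratios was -1.79, and it was not tested because there is 1 value per group. Of the 10 genes Ly6a also had ratios of opposite sign, 0.04 at 300 days and -0.21 at 100 days, which differ by 0.25.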

How the results depend on the processing

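No paired analysis was possible because the table holds 1 value per group, and for the same reason no replicate could be left out. The values were recomputed with a pseudocount of 0.1 or 0.5, unfiltered or from an average of 5 FPKM, after scaling to a common median or to equal totals (TPM), and with rows of a symbol summed. Chosen after seeing the data were leaving out Thy1, Ly6a and Dpp4, using protein-coding rows of 1 symbol, and leaving out rows at 0 in any group. Of 570 recomputed ratios of single genes 10 moved across the size counted, and none that had passed it changed sign. Scaling changed the sign of ratios near 0 for Pdgfrb, Twist2 and Crabp1 in the difference of the genotype differences, and for Fap in cKO and Ly6a in control skin at 300 against 100 days. Fap at 700 against 50 days was -0.98 with a common median and Dpt -0.99 as TPM, leaving 1 gene lower in each. Fap at 100 days was -1.07 and -1.03 with pseudocounts of 0.1 and 0.5 and -1.01 with a common median, so 1 gene was lower in each, and 3 were lower as TPM (Fap, Dpt and Thy1 at -1.15, -1.06 and -1.04). Dpp4 at 300 against 100 days in controls was 0.98 with a common median and 0.91 as TPM, so 0 genes were higher. Without Thy1, Ly6a and Dpp4, 1 gene was lower in cKO skin at 300 days, 0 were higher at 100 days, 0 were lower in the difference of the genotype differences and 0 were higher at 300 against 100 days in controls. The median of the genes kept lay between -0.51 and -0.34 at 700 against 50 days, between -0.51 and -0.39 in cKO skin at 300 days and between -0.62 and -0.44 at 100 days over all alternatives. Some of these medians cover fewer than 10 genes. An average of 5 FPKM leaves out Twist2, and rows of 1 symbol leave out Pdgfra. Among 12049 protein-coding rows of 1 symbol, 3.27% were lower at 700 against 50 days, 5.01% lower in cKO skin at 300 days and 2.24% higher at 100 days, smaller shares than over all rows. Of 120 counts over all rows 34 moved by more than 1.5 times. From an average of 5 FPKM, counts were 263 (488 as deposited) higher at 700 against 50 days, 356 (615) higher and 534 (1200) lower in cKO skin at 300 days, 452 (938) and 533 (887) at 100 days, 540 (1002) and 625 (1545) in their difference, 381 (666) and 330 (828) in cKO skin between ages, and 442 (942) and 235 (431) in controls. Protein-coding rows gave 75 and 394 (653), 234 and 604, 270 and 530, 479 and 547, 297 and 179, and 397 and 129 in that order. Without rows at 0, higher counts were 144 at 700 against 50 days, 404 and 474 in cKO skin at 300 and 100 days and 605 in controls between ages, and lower counts were 906 in the difference, 330 in cKO skin between ages and 202 in controls. A pseudocount of 0.1 gave 1167 lower at 700 against 50 days and 934 higher in cKO skin at 300 days, and no filter gave 2423 lower in the difference and 1264 lower in cKO skin between ages. As TPM, the median row at 300 against 100 days in controls shifted by -0.15, and 869 rows were higher and 636 lower (57.7% higher), against 942 and 431 (68.6%) as deposited.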

Other observations

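Of 10 endothelial genes none passed the size counted at 700 against 50 days or in either cKO comparison, with medians of -0.46, -0.58 and -0.49. Of all rows, 6.71% passed it in the first and 10.7% in each of the others. Keratinocyte genes were higher in 2 of 8 cases at 700 against 50 days (median 0.33) and in 2 of 8 in cKO skin at 300 days (median 0.59), and in none at 100 days (median 0.56). All 5 B cell genes were lower in cKO skin at 300 days (median -3.66), with sums of 2.06 FPKM in cKO and 280 FPKM in control skin, and 1 was lower at 100 days (median 0.05).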
